A study of Homo sapiens with 8 samples.

Results

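A set of 10 plasma membrane amino acid transporter genes other than the glutamine carrier SLC1A5 were examined for AGO2 binding of their mRNA in cells that overexpressed miR-634. These were SLC7A5, SLC3A2, SLC7A6, SLC7A1, SLC38A1, SLC38A2, SLC1A4, SLC1A3, SLC36A1 and SLC36A4. They were chosen by name, and every probe whose RefSeq accession belonged to one of them was taken, which gave 14 probes for all 10 genes. Of the 22435 genes with a probe, 10957 were measured, which required signal well above background from a probe on each of the 8 arrays. In this sense 7 of the 10 transporters were measured, with 9 such probes, whereas SLC7A6, SLC1A4 and SLC36A4 were not and are described separately.

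A431, an established human cutaneous squamous cell carcinoma line with high EGFR, was transfected with miR-NC, a negative control, or with miR-634, each at 10 nM, and lysed after 24 h. AGO2 is the protein of the silencing complex that holds a miRNA together with its target mRNA. An antibody against AGO2 pulled this complex down (RIP), and its RNA was hybridized beside total RNA of the cells (input) on one-color Agilent arrays. Each kind of cells gave 2 input arrays and 2 RIP arrays, so that there were 4 groups. The labels give normal rabbit IgG as the antibody of the input arrays, whereas the study's design and methods call them input, and they are treated as input. No source says that the duplicates were separate transfections, so that the p-values may measure only technical spread. All cells had been transfected, and no untransfected cells were analysed here.

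Amino acids cross the plasma membrane through carriers of several families. SLC3A2 (4F2hc, CD98) is the heavy chain that brings light chains such as SLC7A5 (LAT1) and SLC7A6 (y+LAT2) to the cell surface, where SLC7A5 exchanges glutamine and other neutral amino acids for leucine. The leucine, arginine and glutamine that enter in this way are sensed at the lysosome by mTORC1, and a shortage of amino acids acts through GCN2 and ATF4, which in turn raises many transporter genes. A miRNA guides AGO2 to mRNAs mainly through its seed, and the mRNAs bound are often, but not always, lowered in level.

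The mature sequence of miR-634 is shown because this miRNA, in place of miR-NC, is what set the 2 kinds of cells apart, with the seed, bases 2 to 8, in capitals (RefSeq, GRCh38.p14, chr17:66787132-66787153, plus strand, within the span of the PRKCA gene).
hsa-miR-634: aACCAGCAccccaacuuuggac
A perfect match to this seed in an mRNA reads ugcuggu. Transcript sequences of the transporters were not used here, so that the presence of such matches was not analysed here.

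Every level below is the log2 intensity of a probe minus the 75th percentile of its array, so that 0 is the level of that percentile. Levels of different probes are compared only to choose the probe that stands for a gene, since probes differ in brightness. Subtracting the input level from the RIP level gives the enrichment, and subtracting the enrichment with miR-NC from that with miR-634 gives the change of enrichment. The SD of an enrichment takes arrays of the same number together, although they need not be pairs. On the input arrays, 45.6% to 45.8% of spots were well above background, against 33.6% and 34.5% in the miR-NC RIP and 40.0% on both arrays of the miR-634 RIP, and no spot was saturated. The RIP arrays of miR-634 cells were thus brighter than those of miR-NC cells, and the part of this difference in the results was not tested. The median SD between duplicates was between 0.035 and 0.060 over all measured genes. All 10 squamous carcinoma markers tested were well above background on all 8 arrays, whereas CD3E, PECAM1, COL1A2, MLANA and TYR, which mark T cells, endothelium, fibroblasts and melanocytes, were so on none. CD14 and CDH5, listed as leukocyte and endothelial markers, were well above background on all 8 arrays.

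SLC38A1, SLC38A2, SLC3A2, SLC36A1 and SLC7A1 were more enriched in the RIP of miR-634 cells than in that of miR-NC cells, by 1.98-fold, 1.71-fold, 1.43-fold, 1.23-fold and 1.19-fold. SLC7A5 and SLC1A3 did not pass the test, and the second probe of SLC38A2, described below, did not either. Thus 5 of the 7 measured transporters were called higher by limma with Benjamini-Hochberg adjustment, against 28.1% of all measured genes, and 0 were called lower, against 43.2% of all measured genes. At an unadjusted p under 0.05, 0 transporters were lower by limma, whereas the methods' t-test put 1, SLC1A3, lower. The median change of the 7 transporters was 0.30 on the log2 scale, and that of all measured genes was -0.22. All 7 changes lay above this median. By the probe that stood for each, the same 5 transporters had higher RIP levels in miR-634 cells. None of them passed the test for a difference in the input level (the plot of levels by array). For the RIP level, the second probes of SLC38A1 and SLC38A2 did not pass the test.

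**Figure D1:**
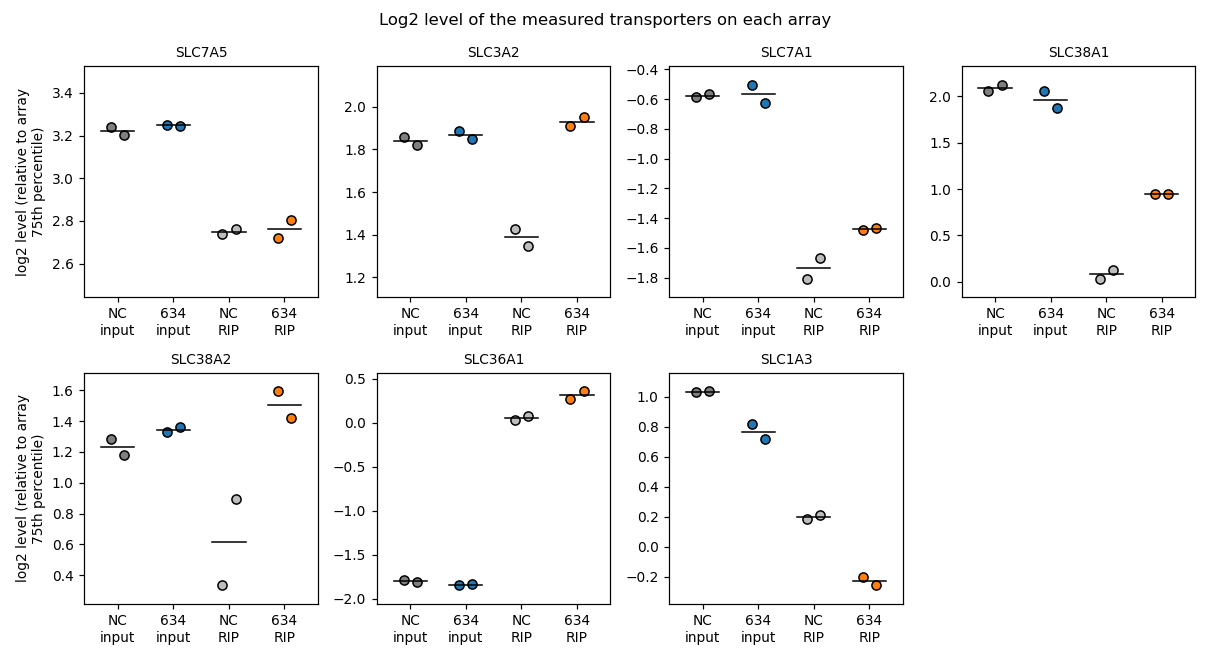
Log2 level of the 7 measured transporters (y axis, relative to the 75th percentile of each array) on the 8 arrays, by group, with the names miR-NC and miR-634 shortened on the x axis. Points are arrays, bars are means of 2 arrays, and the y axis differs between panels. The RIP level of SLC38A1 lay at 0.04 and 0.13 in miR-NC cells and at 0.94 on both arrays in miR-634 cells. Its input levels were 2.06 and 2.12 in miR-NC cells and 2.06 and 1.87 in miR-634 cells.

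SLC7A5 is the light chain that carries large neutral amino acids. Its probe (NM_003486) gave a log2 level of 3.24 and 3.20 on the miR-NC input arrays, 3.25 and 3.25 on the miR-634 input arrays, 2.74 and 2.76 in the miR-NC RIP, and 2.72 and 2.80 in the miR-634 RIP. The RIP levels of both kinds of cells overlapped and all lay below the input levels. The enrichment was -0.47 ± 0.040 with miR-NC and -0.49 ± 0.062 with miR-634 (SD, n = 2 each). The change of enrichment was -0.02 (95% confidence interval -0.18 to 0.15), with an adjusted p of 0.84 by limma. In folds, this interval ran from 0.88-fold to 1.11-fold. Because the median gene fell, SLC7A5 lay 0.20 above the median gene and was above 60.0% of the measured genes. When the arrays were centred on the median gene, the change of SLC7A5 became 0.20 and passed the test (adjusted p = 0.0372 by limma).

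SLC3A2 encodes the heavy chain that SLC7A5 and SLC7A6 need. Its probe (NM_001012662) gave 1.86 and 1.82 on the miR-NC input arrays, 1.88 and 1.85 on the miR-634 input arrays, 1.43 and 1.35 in the miR-NC RIP, and 1.91 and 1.95 in the miR-634 RIP. The input levels overlapped, whereas the RIP levels did not, with both miR-634 RIP arrays above both miR-NC RIP arrays. The RIP level was 0.54 higher in miR-634 cells (SE 0.050, adjusted p = 8.3e-05 by limma), and the input level differed by 0.03 (95% confidence interval -0.09 to 0.15). The enrichment was -0.45 ± 0.032 with miR-NC and 0.06 ± 0.057 with miR-634 (SD, n = 2 each), a change of 0.52 (SE 0.071, adjusted p = 0.00074 by limma). SLC3A2 lay above 77.7% of the measured genes in this change. Before scaling, its intensity was 1922 and 1704 in the miR-NC RIP, and 5159.7 and 5144 in the miR-634 RIP. These values include the greater brightness of the miR-634 RIP arrays. SLC7A5, which was not called, had 4763 and 4543 in the miR-NC RIP, and 9050 and 9270 in the miR-634 RIP. Within the same arrays the change of SLC3A2 exceeded that of its partner SLC7A5 by 0.49 in the arrays numbered 1 and by 0.58 in those numbered 2, a difference in which any shift of a whole array cancels and which was not itself tested.

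SLC7A6, a second light chain of SLC3A2 that exchanges cationic for neutral amino acids, was dim. Its probe (NM_001076785) gave -6.09 and -5.60 on the miR-NC input arrays, -5.50 and -5.58 on the miR-634 input arrays, -7.22 and -7.29 in the miR-NC RIP, and -4.91 and -6.54 in the miR-634 RIP. It was not well above background on both miR-NC RIP arrays and on the miR-634 RIP array numbered 2. The lowest signal well above background on the miR-NC RIP arrays, -5.12 and -5.34, was above the mean of the miR-634 RIP arrays, so that no fold can be given. Without the filter on dim probes, the RIP level differed by 1.53 (95% confidence interval 0.19 to 2.87, adjusted p = 0.0506 by limma) and did not pass the test.

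SLC7A1 (CAT1) takes up arginine, lysine and ornithine. Its probe (NM_003045) gave -0.59 and -0.57 on the miR-NC input arrays, -0.50 and -0.63 on the miR-634 input arrays, -1.81 and -1.67 in the miR-NC RIP, and -1.48 and -1.47 in the miR-634 RIP. Its RIP levels lay below its input levels in both kinds of cells, and both miR-634 RIP arrays lay above both miR-NC RIP arrays. The enrichment was -1.16 ± 0.087 with miR-NC and -0.91 ± 0.095 with miR-634 (SD, n = 2 each). The change of 0.25 (SE 0.093, adjusted p = 0.0464 by limma) passed the test narrowly, and it no longer did with normexp and quantile normalization, where it was 0.21 (adjusted p = 0.0693), nor without a filter on dim probes (adjusted p = 0.101). The call was also lost when a single array was left out, namely either miR-NC input array, the miR-NC RIP array numbered 1, the miR-634 input array numbered 2 or either miR-634 RIP array, with changes from 0.18 to 0.26 and adjusted p from 0.0828 to 0.139. The RIP level was higher by 0.27 (adjusted p = 0.0091 by limma).

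SLC38A1 (SNAT1) takes up glutamine, alanine and other small neutral amino acids together with sodium. Its brightest probe (NM_030674) gave 2.06 and 2.12 on the miR-NC input arrays, 2.06 and 1.87 on the miR-634 input arrays, 0.04 and 0.13 in the miR-NC RIP, and 0.94 and 0.94 in the miR-634 RIP. All 4 RIP arrays lay below all 4 input arrays, and the miR-634 RIP arrays stood well apart from the miR-NC RIP arrays. In miR-NC cells the enrichment was -2.01 ± 0.022 (SD, n = 2), and 0.192% of the measured genes had a lower one. In miR-634 cells it was -1.02 ± 0.13 (SD, n = 2), and 20.2% of the measured genes had a lower one. The change of 0.99 (95% confidence interval 0.74 to 1.24, adjusted p = 0.00021 by limma) was the largest of the 7 measured transporters, although the interval of SLC38A2, described next, included it. Leaving out the second miR-NC RIP array put SLC38A2 at 1.06 and SLC38A1 at 1.04. The mRNA of SLC38A1 remained lower in the RIP than in the input in miR-634 cells (adjusted p = 1.5e-05 by limma). The input level differed by -0.13 (95% confidence interval -0.30 to 0.05, adjusted p = 0.254 by limma).

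A second probe of SLC38A1, annotated to the same transcript, moved less. It gave 1.91 and 1.96 on the miR-NC input arrays, 1.84 and 1.68 on the miR-634 input arrays, 0.24 and 0.37 in the miR-NC RIP, and 0.50 and 0.47 in the miR-634 RIP. The miR-634 RIP arrays again lay above the miR-NC RIP arrays, by a smaller margin. The change of enrichment of this probe was 0.36 (95% confidence interval 0.10 to 0.61, adjusted p = 0.0219 by limma over all probes). Its RIP level differed by 0.18 (95% confidence interval -0.0011 to 0.36, adjusted p = 0.0655 by limma over all probes) and did not pass the test. Its input level differed by -0.18 (95% confidence interval -0.36 to 0.0014). The RIP call of SLC38A1 thus came from its brightest probe. With the mean of both probes, SLC38A1 changed by 0.67.

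SLC38A2 (SNAT2) carries the same kind of amino acids and is known for its induction through ATF4 when amino acids are short. Its stronger probe by mean level over the arrays (NM_018976) gave 1.28 and 1.18 on the miR-NC input arrays, 1.33 and 1.36 on the miR-634 input arrays, 0.33 and 0.90 in the miR-NC RIP, and 1.59 and 1.42 in the miR-634 RIP. Both miR-634 RIP arrays lay above both miR-NC RIP arrays, but the miR-NC RIP duplicates were 0.56 apart. The enrichment was -0.62 ± 0.47 with miR-NC and 0.16 ± 0.14 with miR-634 (SD, n = 2 each). The change was 0.78 (SE 0.24, 95% confidence interval 0.19 to 1.37, adjusted p = 0.0267 by limma), being 1.21 over the arrays numbered 1 but 0.34 over those numbered 2. Its SE was the largest of the 5 calls. The call was lost without either miR-NC input array, either miR-634 input array or the miR-634 RIP array numbered 1, with changes from 0.69 to 0.83 and adjusted p from 0.0512 to 0.0796.

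The second probe of SLC38A2, for the same transcript, gave 1.76 and 1.80 on the miR-NC input arrays, 1.90 and 1.71 on the miR-634 input arrays, -0.03 and -0.57 in the miR-NC RIP, and 0.69 and -0.92 in the miR-634 RIP. Its RIP levels overlapped, because the miR-634 RIP duplicates lay on both sides of the miR-NC RIP arrays. The change of enrichment was 0.16 (95% confidence interval -1.49 to 1.81), with 0.58 over the arrays numbered 1 but -0.27 over those numbered 2. With the mean of both probes, the change of SLC38A2 was 0.47 and did not pass the test (adjusted p = 0.277 by limma). The call thus rested on 1 of 2 probes, as did that for the RIP level. On every input array this second probe was the brighter of the 2. The first probe stood for the gene because of its mean over input and RIP arrays together. That choice therefore drew on the RIP levels under test.

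**Figure D2:**
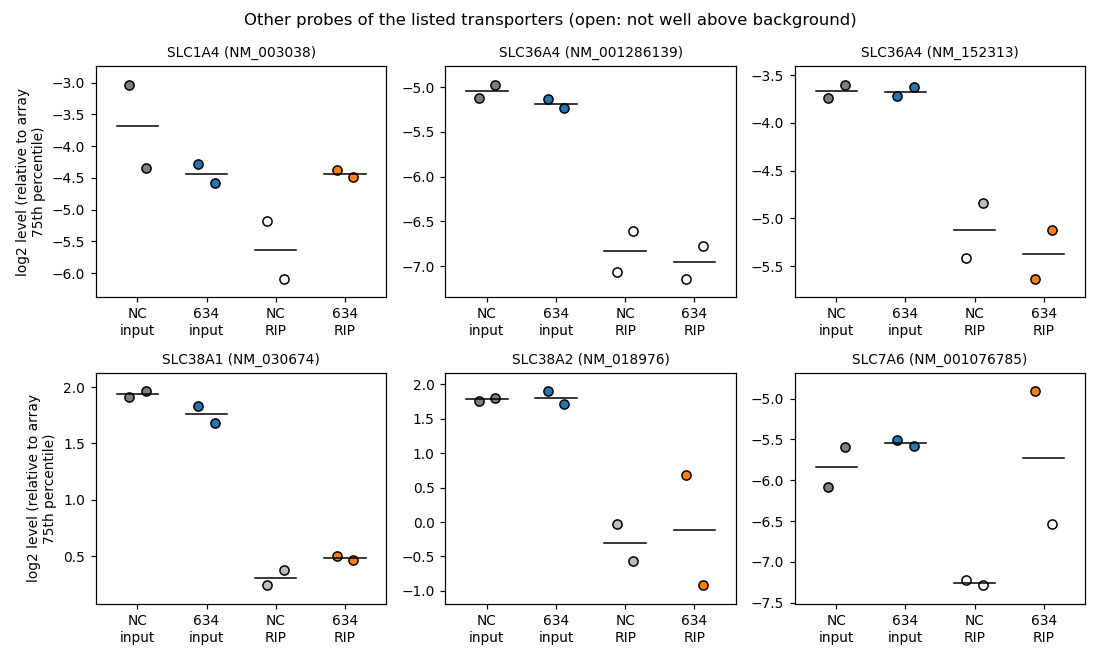
Log2 level (y axis, relative to the 75th percentile of each array) of the probes of the listed transporters that did not stand for a measured gene, by group. Filled points are arrays on which the probe was well above background, open points those on which it was not, and bars are means of 2 arrays. SLC1A4 was not well above background on the miR-NC RIP arrays but was on the miR-634 RIP arrays, and the second probe of SLC38A2 ranged from 0.69 to -0.92 on the miR-634 RIP arrays.

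SLC36A1 (PAT1) exports small neutral amino acids from lysosomes and takes them up at the cell surface with protons. Its probe (NM_078483) gave -1.78 and -1.81 on the miR-NC input arrays, -1.85 and -1.83 on the miR-634 input arrays, 0.04 and 0.08 in the miR-NC RIP, and 0.27 and 0.36 in the miR-634 RIP. It was the only measured transporter whose RIP levels all lay above its input levels, in both kinds of cells. The enrichment was 1.85 ± 0.049 (SD, n = 2) in miR-NC cells, above 96.8% of the measured genes, and 2.15 ± 0.047 (SD, n = 2) in miR-634 cells, above 95.7% of them. These are 3.62-fold and 4.45-fold more RIP than input signal, relative to the array percentile. The change of 0.30 (95% confidence interval 0.13 to 0.46, adjusted p = 0.0076 by limma) was 0.30 in the arrays of each number. With scaling by the spike-in probes, by which the whole RIP arrays were shifted down against the input arrays, the enrichment in miR-NC cells was -0.68.

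SLC36A4 (PAT4), a relative of SLC36A1 that carries proline and tryptophan, missed the filter on 1 array. Its brighter probe (NM_152313) gave -3.73 and -3.60 on the miR-NC input arrays, -3.72 and -3.62 on the miR-634 input arrays, -5.41 and -4.83 in the miR-NC RIP, and -5.63 and -5.12 in the miR-634 RIP. It was well above background on 7 of 8 arrays, the exception being the miR-NC RIP array numbered 1, and its levels in both kinds of cells overlapped in the input and in the RIP. Without the filter on dim probes, its enrichment was -1.46 in miR-NC cells (adjusted p = 0.0036 by limma) and -1.71 in miR-634 cells (adjusted p = 0.0018 by limma), a change of -0.25 (95% confidence interval -1.14 to 0.64). That fit held all genes with a probe, whose median change was -0.48. A second probe (NM_001286139) was well above background on all 4 input arrays and on no RIP array, so that the input signal was at least 1.13-fold higher than the RIP signal in miR-NC cells and at least 2.21-fold higher in miR-634 cells. Each such bound sets the mean of the brighter group against, for each dim array, the lowest signal well above background there or the dim signal itself, whichever was higher.

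SLC1A4 (ASCT1) exchanges alanine, serine and cysteine and is the closest relative of SLC1A5. Its probe (NM_003038) gave -3.03 and -4.34 on the miR-NC input arrays, -4.28 and -4.58 on the miR-634 input arrays, -5.18 and -6.08 in the miR-NC RIP, and -4.38 and -4.49 in the miR-634 RIP. It was not well above background on either miR-NC RIP array and was on the other 6 arrays. Its RIP signal was therefore at least 1.73-fold higher in miR-634 than in miR-NC cells, and in miR-NC cells its input signal was at least 2.91-fold higher than its RIP signal. Without the filter, the RIP level differed by 1.20 (95% confidence interval -0.08 to 2.47, adjusted p = 0.0872 by limma) and the enrichment by 1.95 (95% confidence interval 0.15 to 3.75, adjusted p = 0.0685 by limma), so that neither passed the test. The miR-NC input duplicates were 1.31 apart, with a single array, numbered 1, far above the other input arrays. Without that array, the bound of 2.91-fold became 1.85-fold.

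SLC1A3 (EAAT1, GLAST) takes up glutamate and aspartate, and was the only measured transporter called lower in level in miR-634 cells. Its probe (NM_004172) gave 1.03 and 1.03 on the miR-NC input arrays, 0.82 and 0.72 on the miR-634 input arrays, 0.19 and 0.21 in the miR-NC RIP, and -0.20 and -0.26 in the miR-634 RIP. The groups overlapped neither in the input nor in the RIP, and in both the miR-634 arrays were the lower ones. The input level fell by 0.27 (95% confidence interval -0.39 to -0.14, adjusted p = 0.0143 by limma), a level 0.83-fold that in miR-NC cells. This call was lost with the percentile over all probes (-0.21, adjusted p = 0.126), with spike-in scaling (-0.48, adjusted p = 0.105), and without either miR-NC input array or the miR-634 input array numbered 2 (-0.27, -0.26 and -0.22, adjusted p = 0.0851, 0.0795 and 0.0828). The RIP level fell by 0.43 (adjusted p = 0.00028 by limma), and lost its direction with scaling by the spike-in probes, where it was 0.43. The enrichment was -0.83 ± 0.017 with miR-NC and -0.996 ± 0.026 with miR-634 (SD, n = 2 each), and its change of -0.16 (95% confidence interval -0.34 to 0.01, adjusted p = 0.0807 by limma) did not pass the test. A second probe, for NM_001166696, was not well above background on any array.

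Among the input levels, 1 of the 7 measured transporters, SLC1A3, was called lower by limma, against 12.1% of all measured genes, and 0 were called higher, against 11.6%. At an unadjusted p under 0.05, SLC1A3 was also the only transporter called by limma, and the methods' t-test called 0 higher. For the other 6 transporters, the input difference lay between -0.13 for SLC38A1 and 0.11 for SLC38A2. The interval of SLC38A2 was wide, from -0.30 to 0.53, whereas those of SLC7A5, SLC3A2 and SLC36A1 stayed within 0.16 of 0. Among the RIP levels, 5 transporters were called higher, against 30.9% of all measured genes, and 1, SLC1A3, was called lower, against 46.5%. The RIP differences of the 5 were 0.89 for SLC38A2, 0.86 for SLC38A1, 0.54 for SLC3A2, 0.27 for SLC7A1 and 0.26 for SLC36A1, beside a median of -0.18 over all measured genes. SLC7A5 differed by 0.01 (95% confidence interval -0.10 to 0.13).

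**Figure D3:**
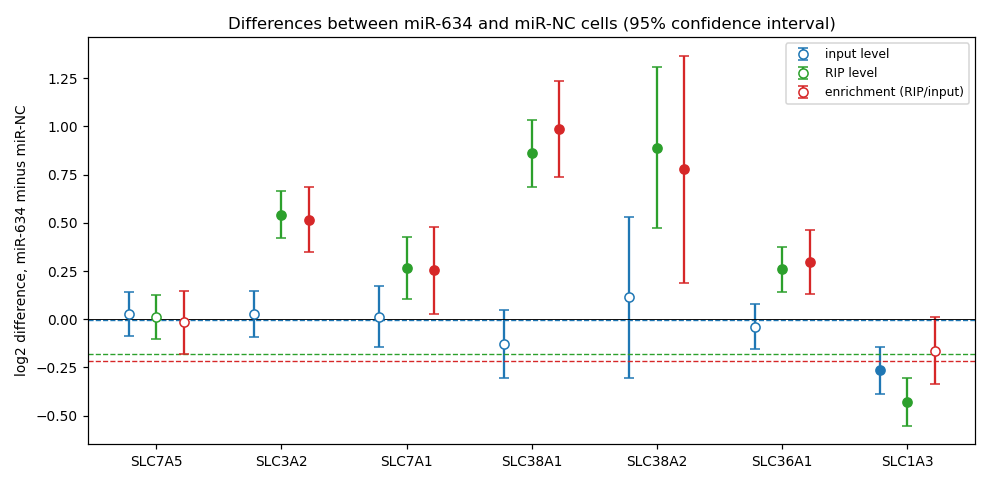
Log2 difference between miR-634 and miR-NC cells (y axis) in the input level, the RIP level and the enrichment of the 7 measured transporters, with 95% confidence intervals from limma. Filled points passed an adjusted p of 0.05, open points did not, and dashed lines are the medians over all measured genes, which were -0.01, -0.18 and -0.22. The changes of enrichment ran from -0.16 for SLC1A3 to 0.99 for SLC38A1.

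Within miR-NC cells, 6 of the 7 transporters were lower in the RIP than in the input, against 45.3% of all measured genes, and 1, SLC36A1, was higher, against 33.5%. Within miR-634 cells, 4 were lower (SLC7A5, SLC7A1, SLC38A1 and SLC1A3), against 48.3% of all measured genes, and SLC36A1 was higher, against 36.1%. The remaining transporters, SLC3A2 and SLC38A2, had an enrichment of 0.06 (95% confidence interval -0.06 to 0.18) and 0.16 (95% confidence interval -0.26 to 0.58) in miR-634 cells. With median scaling, the percentile over all probes, the authors' values or centring on the median gene, SLC3A2 was called higher in the RIP of miR-634 cells, at 0.16 to 0.24. For SLC38A2 the probes disagreed, since its second probe had an enrichment of -1.92 in miR-634 cells (adjusted p = 0.0088 by limma over all probes), and the mean of both probes, at -0.88, was called lower (adjusted p = 0.0150 by limma), which made 5 transporters lower in the RIP than in the input. In miR-NC cells, SLC3A2 and SLC38A2 had been lower in the RIP than in the input, at -0.45 (adjusted p = 0.00018 by limma) and -0.62 (adjusted p = 0.0150 by limma), the latter without a call when the miR-NC input array numbered 1 was left out (-0.56, adjusted p = 0.0705). In the order of enrichment in miR-NC cells, SLC36A1 stood first at 1.85, followed by SLC3A2 at -0.45, SLC7A5 at -0.47, SLC38A2 at -0.62, SLC1A3 at -0.83, SLC7A1 at -1.16 and SLC38A1 at -2.01. This order takes 1 probe for each gene. By its second probe, SLC38A2, at -2.08 with miR-NC and -1.92 with miR-634, would stand last in both. The enrichments of the neighbours SLC3A2 and SLC7A5 differed by less than their SDs, and SLC38A2, with an SD of 0.47, was not apart from either of them nor from SLC1A3. In miR-634 cells, SLC36A1 again stood first at 2.15 and SLC38A1 last at -1.02, with SLC1A3 at -0.996 and SLC7A1 at -0.91 closer to SLC38A1 than its SD of 0.13.

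**Figure D4:**
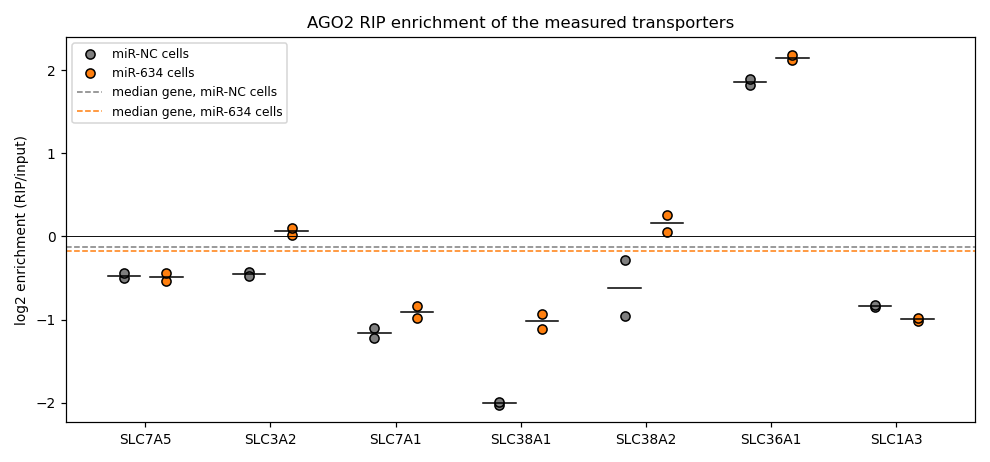
Log2 enrichment (RIP level minus input level, y axis) of the 7 measured transporters in miR-NC and miR-634 cells. Points are the values of the arrays with the same number, which need not be pairs, bars are means, and dashed lines are the medians over all measured genes, -0.12 in miR-NC and -0.17 in miR-634 cells. SLC38A1 moved from -2.01 to -1.02, whereas the points of SLC7A5 overlapped.

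The study took the change of XIAP, a known miR-634 target and an inhibitor of caspases, as the least change of a target. On these arrays XIAP (NM_001167) had an enrichment of -1.03 ± 0.060 with miR-NC and -0.58 ± 0.0093 with miR-634 (SD, n = 2 each), a change of 1.37-fold (0.45 on the log2 scale). SLC38A1, SLC38A2 and SLC3A2, 3 of the 7 measured transporters, exceeded this change, as did 24% of all measured genes. SLC36A1, SLC7A1, SLC7A5 and SLC1A3 lay below it. The study reported a larger change of XIAP from its own processing and used that as its cutoff. The genes counted here over XIAP are therefore not those over the study's cutoff. With the mean of the probes, XIAP changed by 0.62, and of the 3 only SLC38A1, at 0.67, exceeded it. SLC3A2 also fell below XIAP with quantile normalization (0.47 against 0.48), with normexp and quantile normalization (0.46 against 0.50), and when the second miR-NC RIP array was left out (0.475 against 0.490). The intervals of SLC38A2 and SLC3A2, which start at 0.19 and 0.35, include the XIAP change of 0.45, and that of SLC38A1, which starts at 0.74, does not. The XIAP change, here from the probe that stood for the gene, had its own 95% confidence interval of 0.29 to 0.61. By their second probes, however, SLC38A1 and SLC38A2 changed by 0.36 and 0.16, below the XIAP change. The 95% confidence interval of that SLC38A1 probe, 0.10 to 0.61, included the XIAP change.

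To see which other genes behaved like each transporter, all measured genes were ranked by the root mean square difference of their log2 levels over the 8 arrays, each gene taken relative to its own mean. This is a description over 8 arrays of 4 groups, and says nothing of shared function or control. For SLC3A2 the most similar genes were BSG (0.032) and PIGT (0.038), and for SLC7A5 they were LHX4-AS1 (0.035) and STIP1 (0.036). SLC36A1 was closest to SLC29A2 (0.040), SLC7A1 to UTP18 (0.039) and SLC38A2 to UBR1 (0.089). No gene came as close to SLC38A1, for which UBL5 (0.14) and NMRK1 (0.15) were nearest. The partners SLC3A2 and SLC7A5 were 0.24 apart, so that 1260 measured genes were more similar to SLC3A2 than SLC7A5 was.

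Other genes of amino acid transport and sensing were counted in the same fit (the plot of the related genes). Of 31 further plasma membrane amino acid transporters, 7 were measured, and 3 of these were called higher in enrichment, 1 lower and 3 neither, against 28.1% higher and 43.2% lower over all measured genes, with a median change of 0.25 beside -0.22 over all measured genes. The 3 were SLC7A8 (LAT2, a light chain of SLC3A2 like SLC7A5), with a change of 2.89, SLC1A5, the glutamine carrier ASCT2, with 2.82, and SLC38A5 (SNAT5), with 1.48. These exceeded the change of 0.99 of SLC38A1. SLC1A5 and SLC38A5 are in the study's list of targets, chosen by enrichment on these arrays together with lower protein in its proteomics. Their changes of enrichment here are therefore not independent evidence. For SLC1A5 the study also reported western blots, RIP-PCR and a luciferase reporter assay, which were not analysed here. SLC7A8 gave -1.93 and -1.95 on the miR-NC input arrays, -2.79 and -2.82 on the miR-634 input arrays, -2.70 and -2.65 in the miR-NC RIP, and -0.57 and -0.71 in the miR-634 RIP. Its input level fell by 0.86 (adjusted p = 0.00056 by limma), whereas that of SLC7A5 differed by 0.03. SLC38A3 (SNAT3) had a change of -1.12 and was called lower. SLC7A11 (xCT), the cystine carrier that also pairs with SLC3A2, had a change of 0.25 (adjusted p = 0.0624 by limma) and did not pass the test.

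Of 29 genes of amino acid sensing by mTORC1, 26 were measured, of which 11 were called higher and 11 lower in enrichment, against 28.1% and 43.2% of all measured genes, with a median of -0.01. The highest were LAMTOR4, a subunit of the Ragulator that anchors the Rag GTPases on the lysosome, at 2.58 and FLCN, an activator of these GTPases, at 1.76. FNIP2, the partner of FLCN, at -1.48 and the Rag GTPase RRAGA at -1.003 were the lowest. For FNIP2 the input level differed by 1.04 and the RIP level by -0.44. For RRAGA the input level differed by 0.09 and the RIP level by -0.92. Of 15 genes of the amino acid response, 14 were measured, of which 6 were called higher and 3 lower, against the same 28.1% and 43.2%, with a median of 0.17. PSAT1, an enzyme of serine synthesis, at 1.90 and TRIB3, a target of ATF4, at 1.79 were the highest, and CEBPB at -1.12 and ATF4 itself at -0.77 the lowest.

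**Figure D5:**
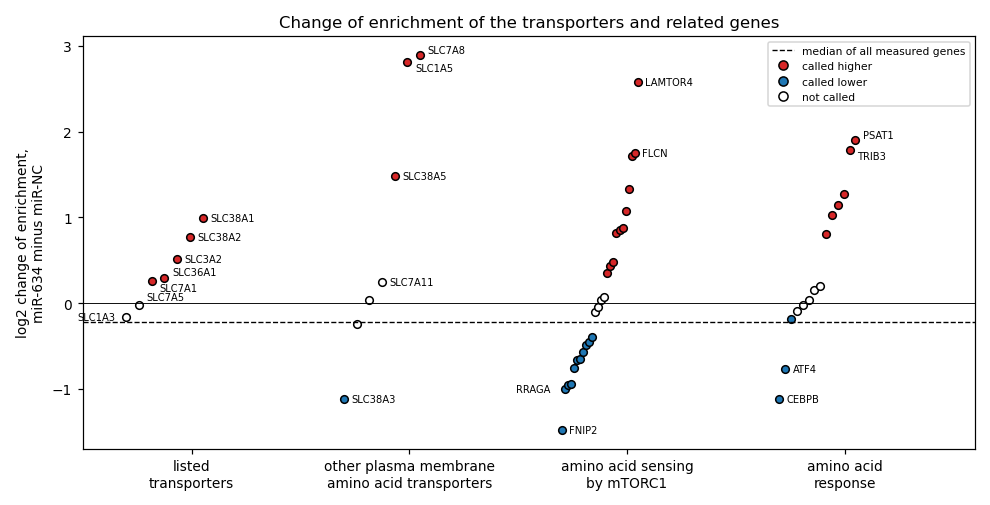
Log2 change of enrichment, miR-634 minus miR-NC (y axis), of the 7 measured transporters and of 3 lists of related genes. Each point is a measured gene, spread sideways in order of its value, red when called higher, blue when called lower and white when not called, and the dashed line is the median of all measured genes, -0.22. SLC7A8 and SLC1A5, at 2.89 and 2.82, lay above every listed transporter.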

How the data were processed

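A431 cells with miR-NC or miR-634 were profiled on 8 arrays, 2 in each of 4 groups. The authors deposited spot intensity from Agilent Feature Extraction, with local background subtracted, and processed log2 values. The version is 12.0.1.1 in the scanner headers of the arrays but 9.1 in the submitters' processing notes. These log2 values matched the log2 intensity minus the 75th percentile over all probes, centred per probe (r of at least 0.999998), had array medians from -0.44 to 0.87, and served only as an alternative.

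After control and outlier spots had been dropped and replicate spots of a probe averaged, log2 intensity was shifted by the array's 75th percentile over the 16808 of 58201 probes (28.9%) with signal well above background throughout. Of 33080 probes with a RefSeq accession, 31100 matched a symbol in the RefSeq table of GRCh38.p14. No transporter coordinates are given, because the array annotation used another build, hg19. The measured probe with the highest mean level over all arrays, input and RIP, stood for a gene. limma 3.58.1 in R 4.3.3 was fitted on the 4 group means with eBayes over all 10957 measured genes, and calls were made at a Benjamini-Hochberg adjusted p under 0.05. In simulated data for the change of enrichment of 10957 genes, 82% of 200 genes changed by 1 on the log2 scale were recovered, and 4.09% of calls were false. The simulated spread was that between duplicates. In the data far more genes were called, and the called transporters changed by less than 1. These rates therefore need not hold for the calls reported here. Tables and plots used Python 3.11.15, pandas 2.3.3 and matplotlib 3.10.9.

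The named genes were all 10 transporters with every probe, XIAP, SLC1A5, SLC38A5, SLC7A11, the 3 highest and 3 lowest called genes among the further transporters, the 2 highest and 2 lowest of the other lists, and the genes most like each transporter. The members and lists were chosen with earlier results of these data known. The alternatives were normexp on the median signal with an offset of 50 followed by quantile normalization, quantile normalization, median scaling, the percentile over all probes, 7 spike-in probes, centring on the median gene, the authors' values, other filters and probe rules, each array left out, a replicate block, an intensity trend, and the methods' t-test. Leaving an array out of a bound, and the count over XIAP in each alternative, were chosen after seeing the data. All arrays were on 1 slide in 1 scan, with input in row 1 and RIP in row 2, and with miR-NC left (columns 1 and 2) of miR-634 (columns 3 and 4), so that position and group cannot be told apart and no slide block could be fitted. Precision is limited by the number of arrays.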

Additional observations from a re-analysis of the deposited data

Results flagged for a closer look

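The change of enrichment, which is the difference of RIP against input between miR-634 and miR-NC cells, passed its own test in limma for 5 transporters. On the log2 scale it was 0.99 for SLC38A1, 0.78 for SLC38A2, 0.52 for SLC3A2, 0.30 for SLC36A1 and 0.25 for SLC7A1. The second probe of SLC38A2 did not pass this test. Groups of 2 arrays were too small to look for single outlying arrays.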

How the results depend on the processing

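The changes of enrichment of SLC38A1 and SLC3A2 kept their direction and their call in limma, and in the methods' t-test with Benjamini-Hochberg adjustment, under all alternatives, ranging from 0.67 to 2.07 and from 0.46 to 1.60. SLC36A1 (0.23 to 1.38) lost its call only in that t-test (adjusted p = 0.0516). Of 23 alternatives, SLC38A2 (0.47 to 1.86) lost its call in 9 and SLC7A1 (0.18 to 1.33) in 13. The highest adjusted p were 0.277 for SLC38A2 by limma with the mean of the probes and 0.153 for SLC7A1 in that t-test. The cause of these losses was not tested. No alternative used the second probe of SLC38A1 or SLC38A2 alone. These probes changed by 0.36 and 0.16, below the ranges given here for the 2 genes.

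For the change of enrichment, the count of transporters called higher, 5, was 3 without a filter on dim probes, 2 in the methods' t-test with Benjamini-Hochberg adjustment and 3 in the methods' t-test without adjustment, and lay between 3 and 5 when an array was left out. It was 3 without the miR-NC input array numbered 1, the miR-NC input array numbered 2, the miR-634 input array numbered 2 or the miR-634 RIP array numbered 1. In the other direction, the count called higher was 7 with spike-in scaling and 6 with centring on the median gene. The count called lower, 0, was 1 with an intensity trend and 1 in the methods' t-test with or without adjustment. For the input level, the count called lower, 1, was 0 with the percentile over all probes, spike-in scaling, the authors' values, no filter and the methods' t-test after adjustment, and 0 to 1 when an array was left out. For the RIP level, the count called higher, 5, was 2 in the adjusted and 3 without adjustment, and the count called lower, 1, was 0 with spike-in scaling. The count higher in the RIP than in the input, 1 in both kinds of cells, was 0 in miR-NC cells with spike-in scaling, and 2 in miR-634 cells with median scaling, the percentile over all probes, centring or the authors' values.

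Spike-in scaling moved the median change of enrichment of all genes to 0.87 and reversed SLC7A5 to 1.07 and SLC1A3 to 0.92, the RIP change of SLC1A3 to 0.43, the enrichment of SLC36A1 in miR-NC cells to -0.68, and those of SLC3A2 and SLC38A2 in miR-634 cells to -1.39 and -1.29. Centring put SLC7A5 at 0.20, and the mean of the probes put SLC38A2 in miR-634 cells at -0.88.

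Over all genes, the change of enrichment was called higher for 3077 and lower for 4730 genes. These counts were 7345 and 193 with spike-in scaling, 3290 and 8657 without a filter, 3842 and 3349 with centring, and 2276 and 2961 in the methods' t-test after adjustment. The RIP level was called higher for 3383 and lower for 5098 genes, against 7405 and 379 with spike-in scaling, 4046 and 3715 with the percentile over all probes, 4043 and 3723 with the authors' values, 4247 and 3894 with centring, 3822 and 10430 without a filter, and 2408 and 3089 in the methods' t-test after adjustment. The input level was called higher for 1273 and lower for 1326 genes, against 34 and 855 with spike-in scaling, 1070 and 657 with the percentile over all probes, 1071 and 663 with the authors' values, 367 and 569 without a filter, 159 and 244 in the methods' t-test after adjustment, and 394 to 517 and 548 to 684 when an input array was left out. In miR-NC cells, 3675 and 4964 genes were higher and lower in the RIP, against 63 and 10744 with spike-in scaling and 9982 and 5688 without a filter, and in miR-634 cells 3959 and 5291, against 712 and 9197, and 9070 and 6305.

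The replicate numbers were not shown to pair the arrays, since deviations of arrays with the same number correlated between -0.038 and 0.084 over genes. The SDs of the enrichments and the methods' t-test of the change of enrichment nevertheless depend on these numbers. The main limma fit does not. With a replicate block, 4 transporters were called higher in the change of enrichment, SLC7A1 (0.25, adjusted p = 0.0681 by limma) being lost, and 3071 genes were called higher and 4728 lower.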
